A study of Mus musculus with 6 samples.

Results

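Complement is a cascade of serum and membrane proteins that tags microbes and damaged cells and can open pores in membranes. Here 30 genes of the cascade, its receptors and its regulators were followed in cultured cells of the mouse lacrimal gland. They were chosen by name, with earlier results of these data known. Each was read from a probe set that carries exactly 1 gene symbol, with the brightest to be taken where a gene has several. Of the 30 genes, 27 were measured, each by 1 such probe set, among 22180 genes tested in all. C3 and Cfd had no probe set with that single symbol, and Masp2 shares its probe set with another symbol, so these 3 genes were not analysed here.

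Total RNA (150 ng) was hybridised to 6 Affymetrix Mouse Gene 2.0 ST arrays, 3 of cells from TSP1 null mice and 3 of cells from wild-type C57BL/6J mice, all female. TSP1 is thrombospondin-1, the product of Thbs1, and the study uses the null mouse as its model of dry eye, so the comparison asks how the cells of the model and of healthy mice differ. Both groups were handled alike: exorbital glands were digested with collagenase, and the cells were kept untreated in medium with 10% serum for about 2 to 3 weeks. The titles write the null group as TSP1-1, and the source names write it as TSP1 null. The sources used here do not give how the null allele was made, its strain background or the age of the mice. Each title names a biological replicate, but not whether it had a mouse of its own, so a p-value here reflects only the spread among these arrays, which may be technical.

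In the classical pathway, C1q, built from the products of C1qa, C1qb and C1qc, recognises bound antibody or altered surfaces and its partner proteases C1r and C1s then cleave C4 and C2. The alternative pathway uses factor B, factor D and properdin, and both routes meet at C3. The fragments C3a and C5a signal through receptors on myeloid cells, and C5 to C9 assemble the membrane attack complex. Host cells carry CD46, CD55, CD59 and related proteins that stop the cascade on their own surface. In many tissues macrophages are the main source of C1q, fibroblasts make C1r, C1 inhibitor and factor B, and the liver makes most of the terminal proteins.

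All values are log2 signals, on which a step of 1 is a doubling, and differences are TSP1 null minus wild type with limma's standard error. The 6 array medians lay between 5.25 and 5.32, and the correlations between arrays between 0.978 and 0.988. Thbs1 itself had a mean of 12.92 ± 0.17 in null cells and 13.60 ± 0.13 in wild-type cells (SD, n = 3), with no overlap. A strong signal thus remained in the null group, and the position of its probes against the disrupted part is unknown here. Over the 22180 genes, limma called 0 at an adjusted p of 0.05 (0%), and 2341 (10.6%) had an unadjusted p under 0.05. Without null array 2, 34 genes were called, and without null array 1 or 3 the genes at that unadjusted p numbered 1497 or 1487. The myoepithelial label was checked against 8 measured markers: Acta2 (13.93 on the null and 13.98 on the wild-type arrays), Tagln (12.33 and 12.37), Cnn1 (12.06 and 12.00) and Myh11 (9.01 and 8.61) were bright. Mylk read 6.72 and 6.31, Krt14 6.12 and 5.23 and Oxtr 5.75 and 5.80, while Trp63, at 4.82 and 4.55, lay under the median of all values (5.28). Krt14 and Trp63 were higher on every null array than on any wild-type array, as were 2231 of the 22180 genes. Counting both directions, 15.8% of all genes did not overlap. Markers of macrophages and fibroblasts were also present, with list means of 6.94 to 9.84 for 14 macrophage markers and 9.76 to 10.95 for 9 fibroblast markers over the 6 arrays. For 5 luminal epithelial markers the list means were 5.89 to 6.85, above the median of all values on every array. For 5 endothelial markers they were 5.26 to 5.75, and for 5 adipocyte markers 5.15 to 6.05. The list means of neutrophil markers (4.01 to 4.21, 6 genes) and lymphocyte markers (4.66 to 4.85, 5 genes) lay under that median on every array, though Csf3r and Nkg7 were above it on some or all arrays. In RNA from a mixed culture, fewer cells of a type and less RNA per cell cannot be told apart.

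Complement genes did not all vary alike over the 6 arrays. The genes named together next were grouped after their values were seen, and no clustering was run. Vsig4, Clu and C7 did not share the profile of the other genes in their role sets. C1q, the anaphylatoxin receptors and properdin had lower means in the null group and were lowest on the third null array. C1 inhibitor, factor B, C1r and C2 were highest on null array 2 and wild-type array 1 and did not separate the groups. Cd59a alone among the 27 genes had all 3 null arrays below all 3 wild-type arrays, as 5.75% of all genes did. The terminal components stayed near or under the median of all values. With limma, 0 of the 27 members passed over all genes, and 6 had an unadjusted p under 0.05, each lower in the null group, where 4.27% of all genes were lower at that p. That count was 2 without null array 1, 1 without wild-type array 2 and 2 without wild-type array 3, and Cd59a was among them each time. The members had a median difference of -0.20, with 10 higher and 17 lower, against 0.02 over all genes, of which 12230 were higher and 9950 lower. The number of arrays limits the precision of every value.

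**Figure D1:**
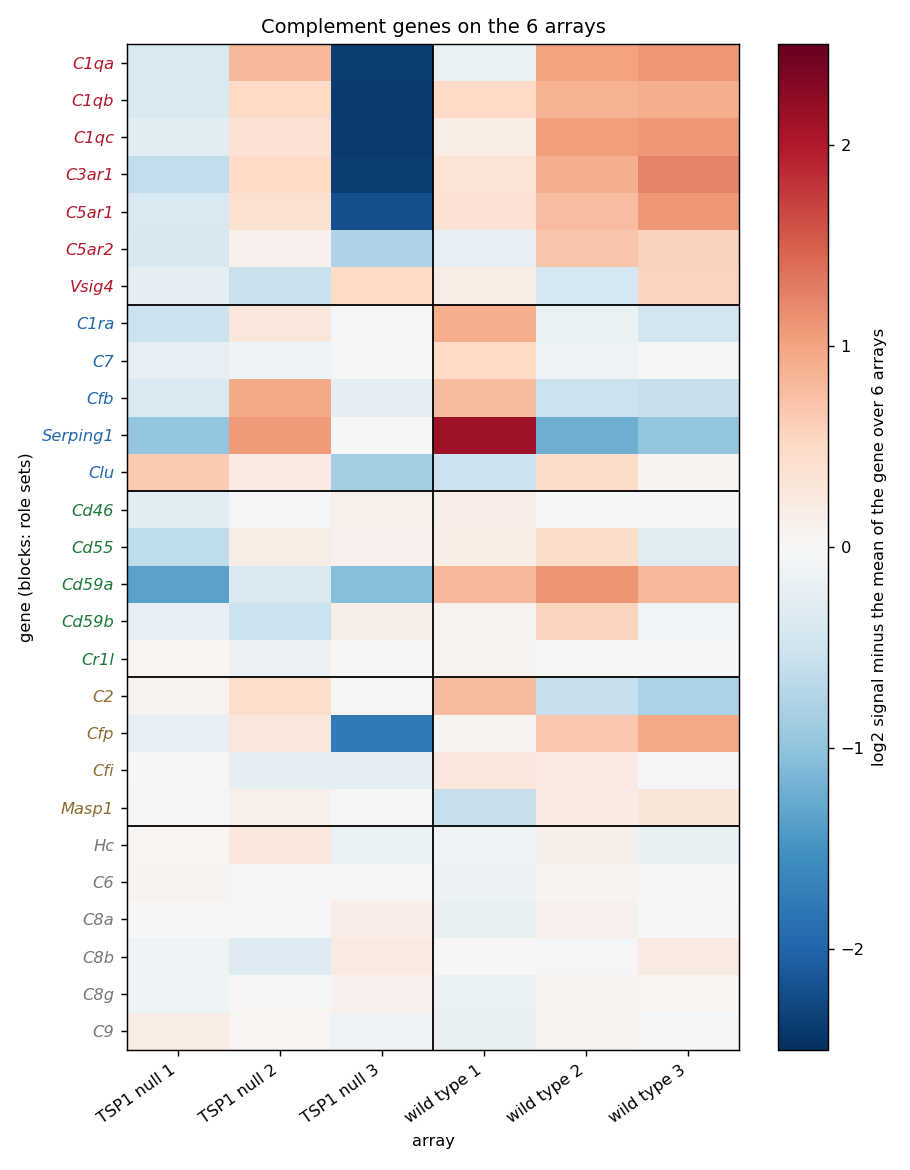
Log2 signal of each of the 27 measured complement genes (rows, in 5 role sets divided by black lines) on the 6 arrays (columns), after subtracting the mean of the gene over the 6 arrays; red is higher and blue lower. Apart from Vsig4, the top block is darkest blue on the third null array. Serping1 is darkest red on the first wild-type array, and Cd59a is blue on the 3 null arrays and red on the 3 wild-type arrays.

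The 3 genes of C1q moved together from array to array. C1qa, the A chain, read 9.14, 10.36 and 7.16 on null arrays 1 to 3, and 9.35, 10.53 and 10.62 on wild-type arrays 1 to 3. C1qb, the B chain, read 11.43, 12.32 and 9.41 against 12.30, 12.68 and 12.72. C1qc, the C chain, read 9.40, 10.01 and 7.26 against 9.83, 10.69 and 10.73. In each of them the third null array was lowest by far and the second null array lay above the first wild-type array, so the groups overlapped. The differences were -1.28 (SE 0.74) for C1qa, -1.51 (SE 0.64) for C1qb and -1.53 (SE 0.65) for C1qc, with adjusted p values of 0.586, 0.465 and 0.465. The unadjusted 95% intervals ran from -3.01 to 0.45 for C1qa, -3.00 to -0.03 for C1qb and -3.03 to -0.02 for C1qc. Only that of C1qa extended to higher levels in the null group. With an ordinary linear model the unadjusted p values of C1qa, C1qb and C1qc were 0.276, 0.157 and 0.159. Without the third null array the differences were -0.42, -0.69 and -0.71.

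The C1q genes lie side by side on chromosome 4, in the order C1qb, C1qc, C1qa, with 0 other genes between neighbours in the reference table. Promoters of C1qb and C1qc are shown because the 2 genes kept nearly the same profile over the arrays. Each covers 250 bases before and 50 bases after the annotated start, on the minus strand of GRCm38.p6, from RefSeq, and C1qb spans chr4:136886151-136886450 and C1qc chr4:136892865-136893164. Capitals mark a match to any of 5 motifs searched on both strands: GAGGAAG for PU.1, TTCNNNGAA for STAT proteins, TTGCNNAA for C/EBP, and the interferon response element and the NF-kappaB site, both given by name.
C1qb: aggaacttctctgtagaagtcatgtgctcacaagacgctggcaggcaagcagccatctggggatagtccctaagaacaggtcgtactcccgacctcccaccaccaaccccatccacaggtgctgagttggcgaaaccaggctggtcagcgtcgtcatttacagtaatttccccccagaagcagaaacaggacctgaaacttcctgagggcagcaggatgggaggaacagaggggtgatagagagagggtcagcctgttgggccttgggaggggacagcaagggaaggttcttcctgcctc
C1qc: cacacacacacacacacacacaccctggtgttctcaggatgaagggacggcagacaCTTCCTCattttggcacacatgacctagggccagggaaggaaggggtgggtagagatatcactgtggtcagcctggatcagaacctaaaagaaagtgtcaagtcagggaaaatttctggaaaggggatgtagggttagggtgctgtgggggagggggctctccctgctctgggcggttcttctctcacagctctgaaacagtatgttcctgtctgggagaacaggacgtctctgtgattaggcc
In a global alignment the 2 promoters shared 151 of 264 aligned bases (57.2%). C1qc held the PU.1 letters once, on the opposite strand and beginning 194 bases before the start, and C1qb held none of the 5 motifs. Of all 32851 promoters in the table, 13.6% held the PU.1 letters. The shares were 8.3% for the STAT letters, 3.44% for the interferon response element, 10.8% for C/EBP and 1.63% for NF-kappaB. Over the 23 complement genes with a promoter in the table, 2 held the PU.1 letters (C1qc and C5ar2), and C1qa is one of those without an entry. A match is a description of the letters only.

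The receptors for C3a and C5a were, like C1q, lowest on the third null array. C3ar1, the C3a receptor, read 9.88, 10.99 and 8.11 on the null arrays and 10.83, 11.39 and 11.74 on the wild-type arrays, a difference of -1.66 (SE 0.64, adjusted p = 0.437), or 3.16-fold higher in the wild type. C5ar1, the main C5a receptor, read 6.55, 7.31 and 4.73 against 7.30, 7.71 and 8.01, a difference of -1.48 (SE 0.58, adjusted p = 0.444). In both the second null array lay just above the first wild-type array. C5ar2, a C5a receptor that does not couple to G proteins, read 7.34, 7.86 and 6.97 against 7.55, 8.44 and 8.32, with null array 3 less far below null array 1 than in C1q. Its difference of -0.71 (SE 0.29, adjusted p = 0.457) was the smaller of the 2 C5a receptors, whose genes lie with 1 gene between them on chromosome 7. Without the third null array the differences were -0.88 for C3ar1, -0.74 for C5ar1 and -0.50 for C5ar2.

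Vsig4, a receptor for C3b on resident macrophages of liver and other tissues, did not share that profile. It read 4.30, 4.00 and 5.04 on the null and 4.74, 4.10 and 5.10 on the wild-type arrays, under the median of all values on each, with the third null array the highest of its group. Its difference was -0.20 (95% interval -0.95 to 0.55). Cfp encodes properdin, which stabilises the alternative pathway convertase and is made largely by myeloid cells. Its signals of 8.69, 9.18 and 7.14 against 8.98, 9.57 and 9.86 followed C1q, with the third null array lowest. The difference was -1.13 (SE 0.49, adjusted p = 0.476), or -0.53 without that array.

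Across C1q and the myeloid receptors 7 of 7 genes were lower in the null group, with a median difference of -1.48, and 5 of the 7 had an unadjusted p under 0.05 in the limma fit (all but C1qa and Vsig4), against 4.27% of all genes lower at that p. None of these 5 kept such a p without null array 1, without wild-type array 2 or without wild-type array 3. Nor did any with an ordinary linear model, and with an intensity trend and robust prior only C5ar2 did. Macrophage markers varied in step with the C1q and receptor set. All 14 measured macrophage markers were lower in the null group, with a median difference of -1.43, and 13 of the 14 were lowest on the third null array, the exception being Cd163, which lay under the median of all values in both groups. Over all genes tested, 14.0% were lowest on that array. Around the mean over the 6 arrays, the C1q and receptor set stood at -0.38, 0.31 and -1.72 in the null group and 0.17, 0.69 and 0.93 in the wild-type group. The macrophage list stood at -0.44, 0.33 and -1.89 and at 0.15, 0.85 and 1.01, the same order of arrays. Without the third null array the 2 medians were -0.69 and -0.70. The part of macrophage number in the C1q and receptor differences was not tested.

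**Figure D2:**
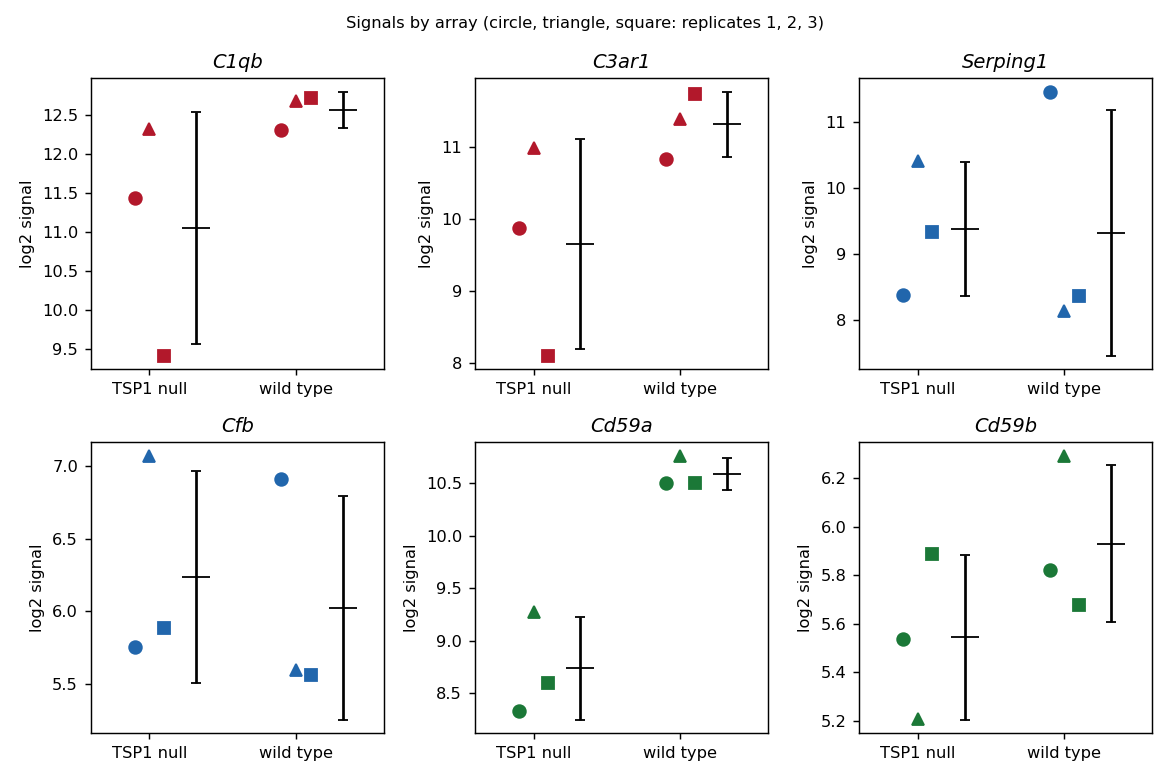
Log2 signal (vertical axes, each with its own range) of 6 complement genes on the 3 TSP1 null and 3 wild-type arrays; symbols mark replicates, and the black bar is the mean with its SD. C1qb and C3ar1 are lowest on null replicate 3, Serping1 and Cfb are high on null replicate 2 and wild-type replicate 1, and only in Cd59a do the groups stay apart.

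Components that stromal cells make showed no common shift. Of the 6 listed 5 were measured, 3 higher and 2 lower in the null group with a median of 0.02. In the limma fit 0 of the 5 had an unadjusted p under 0.05, against 10.6% of all genes. So few genes cannot be told apart from that share. Serping1, which encodes C1 inhibitor, the serpin that shuts off C1r and C1s, read 8.38, 10.41 and 9.33 on the null and 11.46, 8.13 and 8.36 on the wild-type arrays. Its spread inside the wild-type group (9.32 ± 1.86, SD, n = 3) was the widest of the 27 members, and the difference of 0.06 had a 95% interval of -2.01 to 2.13. Leaving out single arrays moved that difference between -0.54 and 1.13, the upper value without the first wild-type array. Cfb, factor B of the alternative pathway, read 5.75, 7.07 and 5.89 against 6.91, 5.60 and 5.56. C1ra, the C1r protease, read 5.08, 5.91 and 5.59 against 6.54, 5.46 and 5.17. In these 3 genes the highest 2 signals belonged to null array 2 and wild-type array 1, so the arrays divided across the groups and not between them.

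C2, the protease that joins C4b in the classical convertase and is parted from Cfb by 1 gene on chromosome 17, had the same 2 arrays on top. It read 5.67, 6.03 and 5.62 against 6.36, 5.00 and 4.79, a difference of 0.38 (95% interval -0.50 to 1.27). C4b, which is not among the 30 genes but lies in the same stretch of chromosome 17, read 7.74 on wild-type array 1, more than that on null array 2, and between 5.75 and 6.05 on the other 4. In all, 4 of the 27 members had these 2 arrays on top, against 6.48% of all genes. Fibroblast markers did so in 5 of 9 genes. Col1a1, Col1a2 and Col3a1 were higher on every null array than on any wild-type array, as were 2231 of all 22180 genes. The fibroblast list had a median difference of 0.41 with 6 of 9 higher. Around its mean the stromal set stood at -0.29, 0.48 and -0.23 in the null group and 0.76, -0.32 and -0.40 in the wild-type group, and the fibroblast list at -0.12, 0.44 and -0.05 and at 0.60, -0.59 and -0.27. The part of the fibroblast share in these signals was not tested.

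The remaining stromal genes had other profiles. Clu, which encodes clusterin, a secreted chaperone that also binds the terminal complex, read 9.54, 9.10 and 8.05 against 8.35, 9.34 and 8.95, and its lowest signals were on null array 3 and wild-type array 1. Its difference was 0.02 (95% interval -0.90 to 0.93). C7, a terminal component that fibroblasts and other mesenchymal cells can make, lay between 3.91 and 4.62 on the 6 arrays, under the median of all values, with the first wild-type array on top and a difference of -0.22 (SE 0.18).

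**Figure D3:**
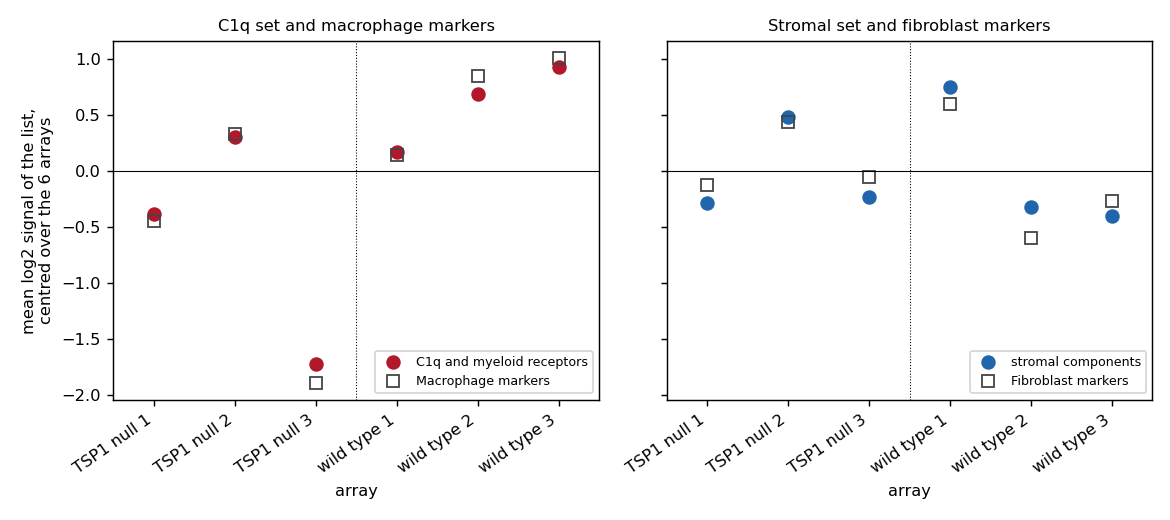
Mean log2 signal of 4 gene lists on each of the 6 arrays, centred on the mean of the list over the arrays (vertical axis). In the left panel the C1q and receptor set (filled circles) and the macrophage markers (open squares) both drop to below -1.7 on null array 3; in the right panel the stromal set and the fibroblast markers both peak on null array 2 and wild-type array 1.

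Membrane regulators differed among themselves, and Cd59a had the largest difference of the 27 members with all 6 arrays in the fit reported. It did not in every alternative: C3ar1 was at -2.33 and Cd59a at -2.12 without null array 2, and C3ar1 was at -2.04 and Cd59a at -1.92 with array weights. Without null array 1, C1qc was at -1.78, C3ar1 at -1.77 and Cd59a at -1.65. C3ar1 was at -1.903 and Cd59a at -1.895 without wild-type array 1. Without null array 2 and wild-type array 1 together they were at -2.57 and -2.17. CD59 blocks the insertion of C9 into membranes, and the mouse has 2 copies of its gene. Cd59a, the widely expressed copy, read 8.33, 9.28 and 8.60 on the null and 10.50, 10.76 and 10.50 on the wild-type arrays. Every null array lay below every wild-type array, which held in that direction for 5.75% of all genes and for 1 of the 27 members. The means were 8.74 ± 0.49 and 10.59 ± 0.15 (SD, n = 3), a difference of -1.85 (SE 0.23, 95% interval -2.40 to -1.31), or 3.61-fold higher in the wild type. Over all genes limma gave an adjusted p of 0.161, and Cd59a ranked 6 of 22180 by p. Whether Cd59a was called depended on the arrays kept. Without null array 2, its highest null signal, the difference was -2.12 with an adjusted limma p of 0.0133. In that setting 34 of all genes were called. With array weights and all 6 arrays the adjusted p was 0.077. Over all single arrays left out the difference lay between -2.12 and -1.65 while the adjusted p went up to 0.73. The third null array, where C1q was lowest, was not the lowest for Cd59a, and the difference without it was -1.78.

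Cd59b, the second copy, which is best known from the testis, lies next to Cd59a on chromosome 2 with 0 genes between them. It read 5.54, 5.21 and 5.89 against 5.82, 6.29 and 5.68, and the groups overlapped. Its difference was -0.39 (SE 0.22, adjusted p = 0.579, 95% interval -0.89 to 0.12), so its interval did not reach that of Cd59a. How far probes of one copy also read the other is unknown here. Both copies are on the chromosome of the targeted gene, with 223 genes of the reference table between Cd59a and Thbs1. Serping1 (769 genes away), Hc (1443) and C8g (1779) share that chromosome, and their differences of 0.06, 0.10 and 0.03 had intervals that included 0. Cd93, a complement gene outside the 30 with 586 genes between it and Thbs1, had a difference of -0.98 (95% interval -1.94 to -0.03). The part of this position in the Cd59a difference was not tested.

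The promoters of the 2 copies are shown because the neighbours differed in their readout. They were taken from RefSeq on GRCm38.p6, plus strand, with the same window and capitals as above; Cd59a spans chr2:104095551-104095850 and Cd59b chr2:104070816-104071115.
Cd59a: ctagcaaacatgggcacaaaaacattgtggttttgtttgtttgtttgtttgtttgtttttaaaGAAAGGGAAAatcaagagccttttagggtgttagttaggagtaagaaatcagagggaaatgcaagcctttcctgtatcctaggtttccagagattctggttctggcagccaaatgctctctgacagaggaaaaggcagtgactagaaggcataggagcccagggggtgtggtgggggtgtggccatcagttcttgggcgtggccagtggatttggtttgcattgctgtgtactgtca
Cd59b: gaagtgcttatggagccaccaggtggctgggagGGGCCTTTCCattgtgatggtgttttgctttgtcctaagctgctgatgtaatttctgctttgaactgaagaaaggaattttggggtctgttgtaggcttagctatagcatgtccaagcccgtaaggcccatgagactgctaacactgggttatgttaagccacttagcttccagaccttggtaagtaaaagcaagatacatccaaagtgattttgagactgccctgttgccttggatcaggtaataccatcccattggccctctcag
Aligned end to end they shared 142 of 285 bases (49.8%). Cd59a held the letters of the interferon response element once, beginning 187 bases before the start, and Cd59b held those of NF-kappaB once, beginning 217 bases before the start. Neither held the other motif.

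The intervals of the other 3 membrane regulators included 0. Cd55, the decay accelerating factor that takes apart the C3 convertases, read 6.80, 7.64 and 7.54 against 7.63, 7.91 and 7.15, a difference of -0.23 (95% interval -0.86 to 0.39). Cd46, a cofactor for cleavage of C3b and C4b that in the mouse is known mainly from the testis, read 5.67, 5.92 and 6.07 against 6.11, 5.93 and 5.94, a difference of -0.11 (95% interval -0.42 to 0.20). Cr1l encodes Crry, the rodent regulator with both activities, and is the direct neighbour of Cd46 on chromosome 1. It had the steadiest signal of the set, 9.12, 8.92 and 9.11 against 9.15, 9.07 and 9.08, and its interval of -0.30 to 0.20 left room for only small differences. All 5 regulators had lower means in the null group, with a median of -0.23 that moved to -0.085 without null array 1 and to -0.44 without wild-type array 3. In the limma fit 1 of them, Cd59a, had an unadjusted p under 0.05, against 10.6% of all genes (4.27% lower).

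**Figure D4:**
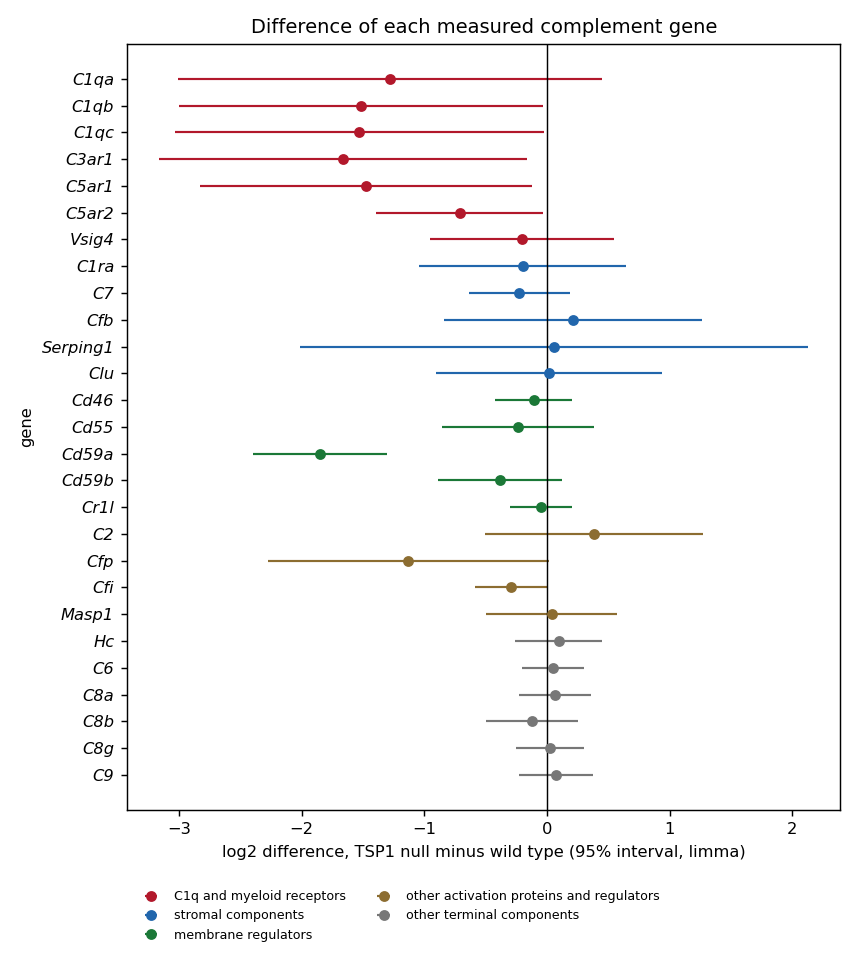
Log2 difference, TSP1 null minus wild type (horizontal axis), of the 27 measured complement genes with limma's 95% interval, coloured by role set. The interval of Cd59a (-2.40 to -1.31) lies farthest from 0, those of C1q and the receptors are wide, and those of Cr1l and the terminal components are narrow and include 0.

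Among the other proteins of activation and control, 4 of 6 were measured (C2 and Cfp above, Masp1 and Cfi). Masp1, a protease of the lectin pathway, read 8.19, 8.37 and 8.20 on the null and 7.65, 8.45 and 8.54 on the wild-type arrays, with the first wild-type array alone at the bottom, and its difference was 0.04 (95% interval -0.50 to 0.57). Cfi, factor I, the protease that inactivates C3b and C4b, lay between 3.59 and 4.08 on the 6 arrays, under the median of all values, with a difference of -0.29 (SE 0.13, adjusted p = 0.476). The set was divided, 2 higher and 2 lower, with a median of -0.13.

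The terminal components Hc (the mouse gene of C5), C6, C8a, C8b, C8g and C9 had means under the median of all values in both groups. Their signals ran from 3.39 for C9 on the first wild-type array to 5.41 for C8b on the third wild-type array. Differences lay between -0.12 for C8b and 0.10 for Hc, 5 higher and 1 lower with a median of 0.06, and the largest SE was 0.16. No terminal gene had an unadjusted p under 0.05 in the limma fit (0 of 6), against 10.6% of all genes. Signals this close to background compress any difference, so the values do not show that the genes were unchanged.

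Set against each other within an array, the role sets did not keep the groups apart. C1q and the receptors minus the stromal set stood, around the mean over the arrays, at -0.09, -0.17 and -1.49 in the null group and -0.59, 1.01 and 1.33 in the wild-type group, a difference of -1.17 between the group means. Minus the membrane regulators they stood at 0.10, 0.48 and -1.59 and at -0.10, 0.27 and 0.84, a difference of -0.67. Both contrasts overlapped between the groups, and in both the first wild-type array lay below 2 of the null arrays. Without the third null array the second contrast was -0.04 and the first was -0.72, while without the second null array the second was -1.08. These contrasts use set means, and the mean of the membrane regulators (-0.53) lay below their median (-0.23) with Cd59a at -1.85. By medians the 2 sets stood at -1.48 and -0.23, and at -0.69 and -0.34 without the third null array.

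Complement genes outside the 30 were read from a list of 33 chosen by role, with earlier results of these data known, of which 31 were measured. None passed over all genes in the limma fit (0 of 31), and 3 had an unadjusted p under 0.05, a share close to the 10.6% over all genes. The median difference of the 31 was -0.03, with 14 higher and 17 lower. The groups did not overlap for 4 of the 31, against 15.8% of all genes: Cd93, described next, and Mbl1 (0.16), Fcnb (0.11) and Cpn1 (-0.11), named after their values were seen. Mbl1, Fcnb and Cpn1 had means under the median of all values in both groups, with unadjusted limma p values of 0.163, 0.304 and 0.278. Itgb2, the beta chain shared by the complement receptors CR3 and CR4, read 8.55, 9.69 and 6.67 against 9.18, 10.31 and 10.38, a difference of -1.65 (SE 0.70). Cd93, once described as a C1q receptor, read 8.05, 8.03 and 6.47 against 8.15, 8.62 and 8.73, a difference of -0.98 (SE 0.41) with no overlap of the groups. Both were lowest on the third null array, as C1q was. Ptx3, the long pentraxin, a soluble pattern receptor that binds C1q, went the other way and read 11.11, 10.64 and 11.42 against 10.90, 8.96 and 9.61. Its difference was 1.23 (SE 0.45, adjusted p = 0.417), and the first wild-type array lay above the second null one.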

How the data were processed

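The deposited values are log2 signals, 41345 on each of 6 arrays, which the authors normalized with RMA in Partek per the submitters' processing notes. The sources used here give no version, setting or genome build. That the scale is log2 follows from its range (1.83 to 14.23). Platform annotation gave 1 symbol to 23521 probe sets, several to 1814 and none to 16010. The brightest probe set was kept for 1082 genes with several, leaving 22180. Groups were compared with limma 3.58.1 (lmFit, eBayes, two-sided, no covariates, no filter) in R 4.3.3, with Benjamini-Hochberg adjustment over all genes, a threshold of 0.05 and 95% intervals. The procedure was tested on simulated data. Lists were described by counts and medians without a test. Promoters came from RefSeq (GRCm38.p6) and were aligned with Biopython 1.88, and gene order came from the same assembly, whose match to the probe sets' build is unknown. Figures used matplotlib 3.10.9 in Python 3.11.15. Members and lists were chosen with earlier results of these data known. Values on each array were given for main members fixed by name and for other members with an unadjusted p under 0.05 or no overlap; those of Cfb, C2, Cfp, Masp1 and C4b were shown for their role or their profile. No protein sequences were used here. Deviations of same-numbered arrays had correlations of -0.14, 0.18 and -0.16 over genes, and those of differently numbered arrays lay between -0.18 and 0.26. The numbers were therefore not taken as pairs, though 3 arrays per group cannot exclude a pairing. Arrays have no sequencing depth.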

Additional observations from a re-analysis of the deposited data

How the results depend on the processing

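Over 17 alternatives the median difference of C1q and the myeloid receptors stayed below 0, at -0.69 without the third null array and -2.28 without the second null and first wild-type arrays together, a setting chosen after seeing the data. Leaving out single arrays it ran from -2.03 to -0.69. The median of the membrane regulators ran from -0.44 to -0.085 on the same basis.

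Genes called went from 0 to 365 without the 2 arrays together, and from 0 to 34 over single arrays left out (34 without the second null array, 1 without the first wild-type array). Genes at an unadjusted p under 0.05 numbered 1487 to 2736 over single arrays left out. When every deposited probe set was tested, 2 of the 41345 were called and 3766 had an unadjusted p under 0.05. Those 2 counts are of probe sets and not of genes. Members called were 0 to 1 over single arrays left out and 2 without the 2 arrays together, Cd59a (-2.17, adjusted p = 0.0119) and C5ar2 (-1.22, adjusted p = 0.032), where Ptx3 was the 1 other pathway gene called (1.97, adjusted p = 0.0269). Members at an unadjusted p under 0.05, 6 in the fit reported, were 3 over every probe set, 3 with an intensity trend and robust prior, 1 with an ordinary linear model (Cd59a) and 1 to 8 over single arrays left out. With the replicate block there were 6 again, 2215 genes at that p, 0 called, and Cd59a had an adjusted p of 0.313. The check given cannot exclude a pairing by number, and the block changed no call.

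Of 27 members, 13 kept their sign in every alternative run, and 14, all with intervals that include 0, changed it in at least 1. Without the 2 arrays together C8g was at -0.059, C9 at -0.0019, Hc at -0.042, C1ra at 0.019, Cr1l at 0.040, Vsig4 at 0.068, Masp1 at -0.30 and Clu at -0.35. With array weights C8g was at -0.012, Masp1 at -0.13 and Clu at -0.097. Over single arrays left out, differences ran from -0.0089 to 0.097 for C6, -0.014 to 0.14 for C8a, -0.26 to 0.0058 for C8b, -0.050 to 0.082 for C8g, -0.0050 to 0.16 for C9, -0.010 to 0.20 for Hc, -0.21 to 0.66 for Cfb, -0.48 to 0.21 for C1ra, -0.54 to 1.13 for Serping1, -0.44 to 0.028 for Cd55, -0.085 to 0.013 for Cr1l, -0.50 to 0.027 for Vsig4, -0.24 to 0.20 for Masp1 and -0.30 to 0.44 for Clu. The cause was not tested. Without dim genes the terminal components had no value.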
